A study of Mus musculus with 18 samples.

Results

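The genes described are those of the mitochondrial ribosomal proteins, taken as every row of the deposited table whose symbol starts with Mrpl or Mrps and a number, pseudogenes left out. These were 78 of 54848 rows, 49 named Mrpl and 29 named Mrps, and all 78 were above 0 in every library and passed the filter on low values. RNA of the kidney cortex was sequenced from mice of the genotype labelled WT. They had undergone sham surgery or had received a kidney transplant after cold storage, that is, a graft held cold between removal and implantation. There were 6 groups with 3 libraries in each (18 in all), namely a sham group and a transplant group for each of day 1, day 7 and day 14. For all groups the labels further mention rat cells in culture, a line of proximal tubule origin, and a protocol of streptozotocin diabetes with ischemia and reperfusion, neither of which matches the titles. The groups follow the titles. The sources used here do not give strain, sex, age, donor or recipient. Whether the 3 libraries of a group represent different mice is not stated, so each p-value reflects only the spread between libraries, which may be technical.

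Mitochondria keep their own ribosomes, which translate only the messengers of the mitochondrial chromosome, all of them for core subunits of the respiratory chain and ATP synthase. The ribosomal RNAs are made inside the organelle, while every protein of the large and small subunit is encoded in the nucleus, made on cytosolic ribosomes and imported. Some of these proteins descend from bacterial ribosomal proteins and others are found only in mitochondria. The kidney, and its proximal tubule above all, is rich in mitochondria because reabsorption of salt and solutes costs much ATP. By the nomenclature of the ribosome structures, 51 of the 78 belong to the large subunit and 26 to the small subunit. In the list used here, 30 of the large subunit were classed with a bacterial counterpart and 21 as specific to mitochondria. For the small subunit these were 15 and 11, with Mrps28 among the 11. This split can differ from that of the nomenclature. Mrps30 and Mrps18a are counted with the large subunit despite their names, and Mrps36, now known as a subunit of the oxoglutarate dehydrogenase complex, with neither. The genes lie on 17 chromosomes, with at most 11 on any of them (chromosome 11), and the exons of 33 overlap those of another gene. The sources used here do not say whether counting used strand, so reads of such pairs cannot be told apart.

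The upstream regions are shown for the members that passed the test in the same direction on both scales of measurement described below. Not all of these calls held with a library left out. RefSeq promoter windows (build GRCm38.p6) were matched by symbol for 69 of the 78 genes, and 8 of the 10 such members have one. Each sequence is the 150 bases before the RefSeq start, 5′ to 3′, with matches to 3 motifs known from promoters of nuclear genes for mitochondria in capitals. The motifs were the core of the nuclear respiratory factor NRF1 (GCGCANGCG), that of ETS factors such as GABP (CCGGAAG) and that of YY1 (AAGATGGC), searched on both strands. Mrps18b, Mrpl33, Mrpl52 and Mrps6 rose at day 1.
Mrps18b: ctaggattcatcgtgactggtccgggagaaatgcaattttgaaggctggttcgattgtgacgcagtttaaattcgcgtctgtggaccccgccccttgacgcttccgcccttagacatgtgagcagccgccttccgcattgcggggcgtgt
Mrpl33: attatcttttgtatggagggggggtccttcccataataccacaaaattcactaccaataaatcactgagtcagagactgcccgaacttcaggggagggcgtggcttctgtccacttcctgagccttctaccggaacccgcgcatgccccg
Mrpl52: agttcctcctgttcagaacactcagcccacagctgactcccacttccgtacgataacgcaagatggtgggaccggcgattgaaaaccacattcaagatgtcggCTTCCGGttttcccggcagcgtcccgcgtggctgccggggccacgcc
Mrps6: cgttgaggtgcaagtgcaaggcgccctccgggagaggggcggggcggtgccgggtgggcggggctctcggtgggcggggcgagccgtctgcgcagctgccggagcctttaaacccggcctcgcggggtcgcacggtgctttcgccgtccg
These lie at chr17:35916441-35916590 on the minus strand, chr5:31613801-31613950 on the plus strand, chr14:54426759-54426908 on the plus strand and chr16:92058186-92058335 on the plus strand. Only the Mrpl52 stretch holds a match, to the ETS motif. Mrps18b has 1 NRF1 match within 250 bases before the start, outside the stretch shown. Mrps9 and Mrps21 fell at day 1, and Mrps7 and Mrps31 fell at day 14.
Mrps9: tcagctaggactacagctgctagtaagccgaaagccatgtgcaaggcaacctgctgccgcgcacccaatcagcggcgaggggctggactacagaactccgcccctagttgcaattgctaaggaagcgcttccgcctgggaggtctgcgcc
Mrps21: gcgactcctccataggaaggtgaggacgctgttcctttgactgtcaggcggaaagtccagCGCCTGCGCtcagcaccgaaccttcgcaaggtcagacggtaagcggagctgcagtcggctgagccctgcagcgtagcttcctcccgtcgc
Mrps7: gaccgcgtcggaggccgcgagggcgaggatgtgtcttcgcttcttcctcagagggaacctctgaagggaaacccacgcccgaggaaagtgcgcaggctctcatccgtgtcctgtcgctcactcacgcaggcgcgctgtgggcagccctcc
Mrps31: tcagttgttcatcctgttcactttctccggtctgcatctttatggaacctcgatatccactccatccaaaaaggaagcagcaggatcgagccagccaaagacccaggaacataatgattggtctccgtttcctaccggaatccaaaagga
These lie at chr1:42851083-42851232 on the plus strand, chr3:95871515-95871664 on the minus strand, chr11:115603990-115604139 on the plus strand and chr8:22411190-22411339 on the plus strand, and only the Mrps21 stretch holds a match, to the NRF1 motif. Of the 69 members with a window, 18.8% held the NRF1 motif within 250 bases before the start, 26.1% the ETS motif and 5.8% the YY1 motif. Among 9977 tested protein-coding genes the shares were 12.4%, 15.4% and 2.31%, and among all 27025 genes of the table they were 5.86%, 7.83% and 1.83%. With the 50 bases after the start included, a window chosen after these values were seen, the members' shares were 23.2%, 37.7% and 17.4%, against 14.9%, 19.8% and 5.19% of the tested protein-coding genes. A match is a run of letters and not a site shown to be bound.

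Values are FPKM as the authors deposited them, that is, fragment counts divided by the length of the gene and by the total of the library. Their sums ran from 386876 to 524362 per library, genes above 0 numbered 18666 to 23088, and the sequencing depth is unknown. Genes with at least 1 FPKM in at least 3 libraries were tested (15278) with limma on log2(FPKM + 1), a scale that understates the change of low genes, and a gene was called at an adjusted p below 0.05 (Benjamini-Hochberg over all tested genes of a comparison). On this deposited scale the median of all tested genes stood at a log2 fold change, transplant over sham, of 0.31 at day 1, 0.41 at day 7 and 0.27 at day 14. Transcripts of the mitochondrial chromosome took 28.8% to 31.5% of the FPKM sum in sham and 14.4% to 27.7% in transplant. A second scaling by median-of-ratios size factors, which centres the genes expressed in every library, moved those medians to 0.03, 0.02 and 0.02. Its factors were 0.855 to 0.918 in sham and 1.07 to 1.26 in transplant. The counts of members and of the other gene lists are given on both scales, and n is 3 libraries per group for every mean and SD.

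The tissue label was checked against kidney markers, which were present in every library except for Pvalb of the distal convoluted tubule, at 0 in some. The summed FPKM of 7 proximal tubule markers was 2273 to 2742 in sham libraries and 334 to 648, 889 to 914 and 1035 to 1599 in transplant at day 1, day 7 and day 14, and 7, 5 and 4 of them fell. The sum of 6 macrophage markers was 16.8 to 29.7 in sham and 47.6 to 52.1, 206 to 430 and 126 to 269 in transplant. Of these markers 2, 6 and 6 rose, and 1, 0 and 0 fell. The sum of 4 fibroblast and pericyte markers was 11.1 to 22.6 in sham and 54.2 to 83.5, 85.6 to 221 and 94.5 to 140, and 4, 4 and 3 of them rose. At day 1 the 4 neutrophil markers summed to 0 in sham and to 25.8 to 61.3 in transplant. B cell markers were at most 0.926 in any library, and each was at 0 in some. In bulk tissue, fewer cells of a type and less RNA per cell cannot be told apart, and the part of these markers in the results below was not tested.

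The summed level of the family was higher after transplantation than in sham at day 1 on the deposited scale, and lower at day 7 and day 14 under median-of-ratios scaling. Their summed level was 1375, 1526 and 1420 FPKM in the sham libraries of day 1 (1440 ± 77.8, SD) and 1664, 1979 and 1674 FPKM in the transplant libraries (1773 ± 179). All 3 transplant libraries lay above all 3 sham libraries, and the highest, replicate 2, was also the one with the smallest share of mitochondrial-chromosome transcripts at that day (16.9% against 24.3% and 24.7%). At day 7 the sums were 1402, 1263 and 1598 FPKM in sham and 1544, 1555 and 1671 FPKM in transplant, and at day 14 they were 1426, 1434 and 1333 FPKM in sham and 1278, 1492 and 1434 FPKM in transplant. The groups overlapped at both later days. The ratio of transplant to sham was 1.23 ± 0.141 (SD by error propagation) at day 1, 1.12 ± 0.142 at day 7 and 1.0 ± 0.0887 at day 14. Under median-of-ratios scaling it was 0.94 ± 0.0862, 0.794 ± 0.107 and 0.799 ± 0.0699, with overlapping groups at day 1 and groups apart at day 7 and day 14. As a share of the deposited sum the genes took 0.292% ± 0.00561 in sham and 0.393% ± 0.0539 in transplant at day 1, 0.288% ± 0.0189 and 0.4% ± 0.0031 at day 7, and 0.286% ± 0.0108 and 0.322% ± 0.0291 at day 14. That sum includes transcripts of the mitochondrial chromosome, whose share was lower in transplant. Without them the genes took 0.413% ± 0.0129 in sham and 0.502% ± 0.0397 in transplant at day 1. The shares were 0.414% ± 0.0278 and 0.479% ± 0.0119 at day 7, and 0.412% ± 0.0115 and 0.433% ± 0.0256 at day 14. No test was made of these sums and shares.

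**Figure D1:**
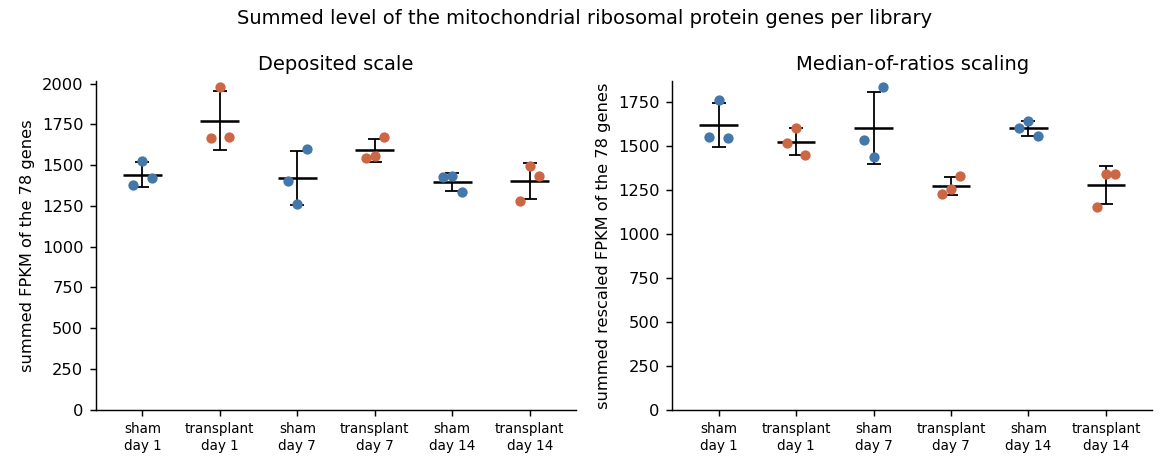
Summed level of the 78 genes in each library, on the deposited FPKM scale (left) and after median-of-ratios scaling (right); points are libraries, bars the mean and SD of 3. On the left the day 1 transplant libraries lie above sham, and on the right the day 7 and day 14 transplant libraries (1156 to 1342) lie below all sham libraries of their day.

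At day 1, the first time point after surgery, members moved in both directions. Of the 78 genes, 16 rose and 3 fell on the deposited scale, where 29.6% of all tested genes rose and 9.56% fell. Under median-of-ratios scaling 5 rose and 10 fell, beside 14.7% and 15.5% of all tested genes. The median log2 fold change of the family was 0.24 on the deposited scale, with 47 of 78 below the median of all tested genes, and -0.10 under median-of-ratios scaling. Of the 16 that rose, 10 were of the large subunit (of 51) and 6 of the small subunit (of 26), and all 3 that fell were of the small subunit. Without replicate 2 of the transplant group, 10 genes rose and 2 fell on the deposited scale, and 2 rose and 11 fell under median-of-ratios scaling. The 3 that fell on the deposited scale became 0 without replicate 3 of sham, and 1 without replicate 2 of sham or replicate 1 or 3 of transplant. Under median-of-ratios scaling 2 rose without replicate 1 of sham, 3 rose without replicate 3 of sham or of transplant, and 6 fell without replicate 3 of transplant.

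The largest change of the family was that of Mrps18b, a small-subunit protein and one of 3 related genes, with Mrps18a and Mrps18c, that are related to a single bacterial ribosomal protein, though the structure nomenclature counts Mrps18a and Mrps18b as specific to mitochondria (ENSMUSG00000024436, chromosome 17, 35910379 to 35916389 in GRCm38). Its level at day 1 was 16.2, 12.5 and 12.9 FPKM in sham and 35.3, 46.9 and 45.2 FPKM in transplant. The groups were far apart, with the lowest transplant library above the highest sham library. The log2 fold change was 1.55 ± 0.19 (SE, limma adjusted p = 3.61e-06) on the deposited scale and 1.18 after median-of-ratios scaling (limma adjusted p = 6.22e-05), and it held with any library left out. An antisense gene, Gm16279, shares 30.5% of its exon length but averaged only 1.12 FPKM. Mrps18a, the copy placed in the large subunit, also rose on the deposited scale, from 25.6 ± 4.18 to 41.3 ± 6.86 FPKM (log2 fold change 0.67, limma adjusted p = 0.0137), as did Mrps18c, from 24.8 ± 4.03 to 36.6 ± 9.51 FPKM (0.53, limma adjusted p = 0.0224). Neither passed under median-of-ratios scaling (0.30 and 0.16), and the Mrps18c libraries of the groups overlapped. The call of Mrps18a was lost without replicate 3 of sham or replicate 2 of transplant, and that of Mrps18c without replicate 1 of sham or replicate 3 of transplant.

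In the large subunit, Mrpl33 and Mrpl52 rose most. Mrpl33, the counterpart of a small bacterial large-subunit protein (chromosome 5, 31596935 to 31664384), was at 22.1, 27.8 and 30.6 FPKM in sham and 73.1, 61.5 and 108 FPKM in transplant. Mrpl52, a protein specific to mitochondrial ribosomes (chromosome 14, 54426909 to 54429756), was at 15.9, 27.1 and 23.7 FPKM in sham and 48.4, 69.3 and 54.9 FPKM in transplant. In neither gene did the groups overlap. The log2 fold changes were 1.53 ± 0.23 (limma adjusted p = 4.50e-05) and 1.35 ± 0.29 (limma adjusted p = 0.00133) on the deposited scale, and 1.15 and 0.98 after median-of-ratios scaling (limma adjusted p = 0.00118 and 0.0139). Both held on the deposited scale with any library left out, while the median-of-ratios call of Mrpl52 was lost without replicate 1 of sham or replicate 2 of transplant. Mrpl38, which is specific to mitochondria and resembles phosphatidylethanolamine-binding proteins, was at 16.9, 17.9 and 18.5 FPKM in sham and 26.5, 49.6 and 33.7 FPKM in transplant, with the highest value in replicate 2. Its log2 fold change was 0.96 ± 0.22 (limma adjusted p = 0.00178), or 0.59 after median-of-ratios scaling (limma adjusted p = 0.0336), and the second of these calls was lost with 5 of the 6 libraries left out in turn (highest limma adjusted p = 0.181). Mrpl57 rose on the deposited scale from a low level, 3.88 ± 1.87 to 8.66 ± 2.92 FPKM (1.02, limma adjusted p = 0.0203), and its call was lost without replicate 1 of sham or replicate 2 or 3 of transplant. The other large-subunit genes that rose on the deposited scale were Mrpl15, Mrpl19, Mrpl36, Mrpl40 and Mrpl54, with log2 fold changes from 0.55 (Mrpl36) to 0.86 (Mrpl15).

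In the small subunit, Mrps6 and Mrps10 followed Mrps18b. Mrps6, counterpart of a bacterial protein at the platform of the subunit, was at 29.0, 30.9 and 29.1 FPKM in sham and 50.98, 61.9 and 56.5 FPKM in transplant at day 1. The sham libraries lay close together and the transplant libraries well above them. The log2 fold change was 0.90 ± 0.17 (limma adjusted p = 4.55e-04), or 0.53 after median-of-ratios scaling (limma adjusted p = 0.0217). The call after median-of-ratios scaling was lost with 4 of the 6 libraries left out in turn, and the deposited call with none. Mrps6 shares 10.4% of its exon length with the inositol transporter gene Slc5a3 on the same strand, whose own change at day 1 was 0.62 (limma adjusted p = 0.0847). Mrps10, a counterpart of a bacterial head protein, was at 11.6, 11.1 and 11.8 FPKM in sham and 18.01, 26.4 and 24.5 FPKM in transplant. Its groups did not overlap, and its log2 fold change was 0.92 ± 0.23 (limma adjusted p = 0.00387), or 0.56 under median-of-ratios scaling, where it missed the threshold (limma adjusted p = 0.0577). Mrps17 (0.58) and Mrps27 (0.68) also rose on the deposited scale.

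The 3 genes that fell at day 1 on the deposited scale also fell under median-of-ratios scaling. Mrps35, specific to mitochondria, was at 7.58, 11.3 and 10.6 FPKM in sham and 6.95, 6.92 and 5.08 FPKM in transplant. Mrps9, counterpart of a bacterial protein of the subunit head, was at 17.4, 15.2 and 16.4 FPKM in sham and 9.60, 13.9 and 12.5 FPKM in transplant. Mrps21, also with a bacterial counterpart and among the most abundant members, was at 60.0, 66.0 and 59.9 FPKM in sham and 43.9, 48.7 and 42.9 FPKM in transplant. None of the 3 had overlapping groups. Log2 fold changes on the deposited scale were -0.56 ± 0.17, -0.42 ± 0.15 and -0.45 ± 0.17 (limma adjusted p = 0.0154, 0.0295 and 0.0458), and each was lost with at least 3 of the 6 libraries left out in turn. Under median-of-ratios scaling they were -0.90, -0.78 and -0.82 (limma adjusted p = 5.24e-04, 2.52e-04 and 0.00104), and each held with any library left out. The other 7 genes that fell under this scaling were Mrpl1, Mrpl12, Mrpl42, Mrpl50, Mrps2, Mrps31 and Mrps36. Mrpl42, the most abundant of the family (mean of 74.6 FPKM over all libraries), had a log2 fold change of -0.36 on the deposited scale and -0.74 after median-of-ratios scaling (limma adjusted p = 0.0756 and 0.00141).

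**Figure D2:**
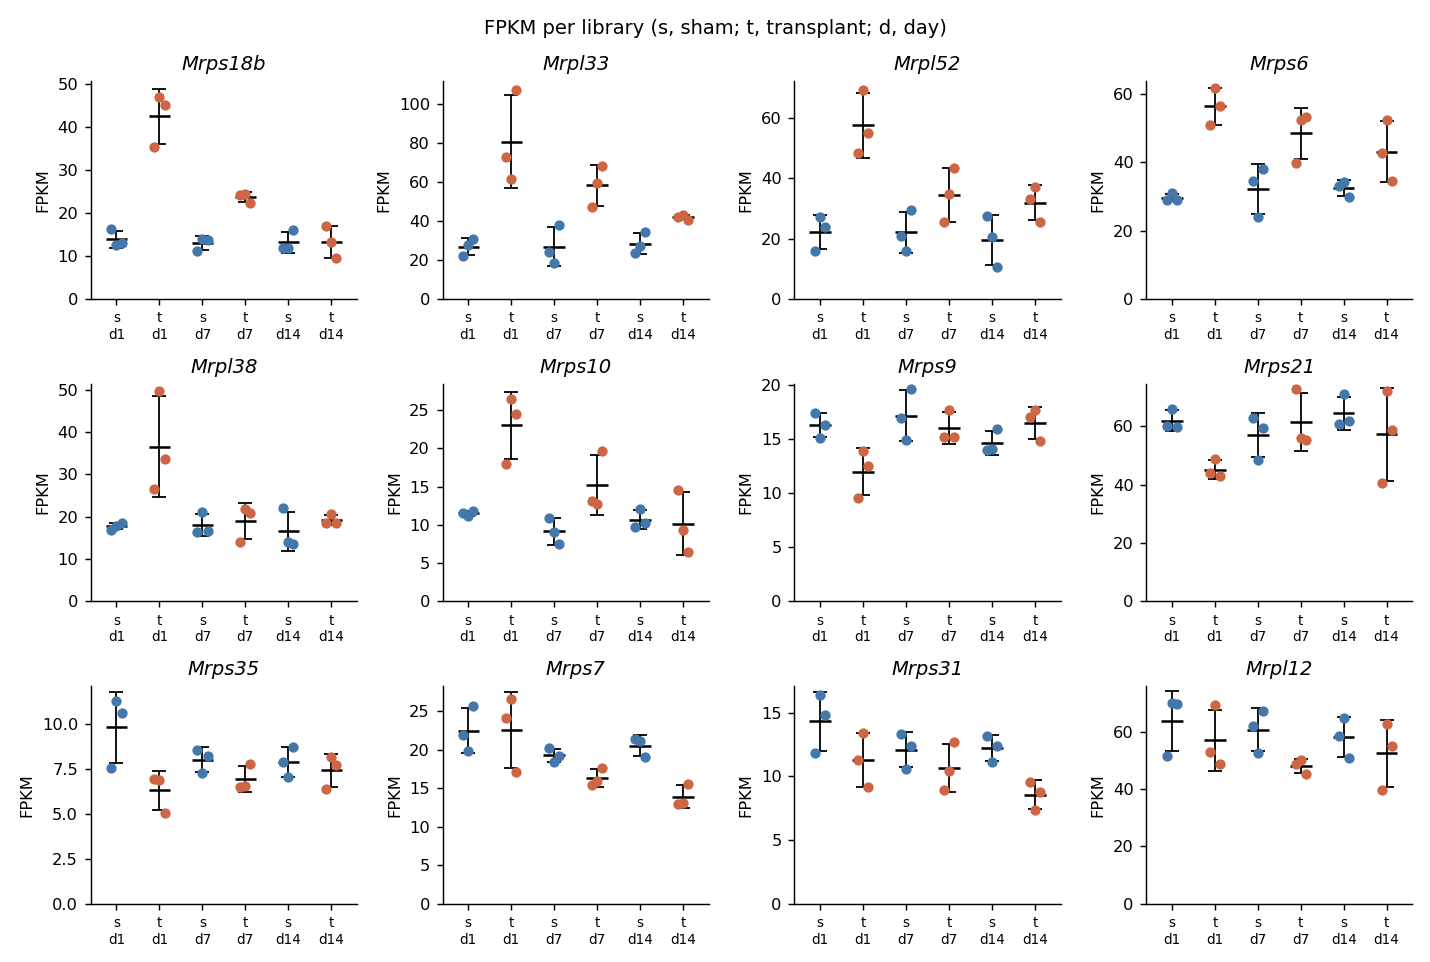
FPKM on the deposited scale of 12 members in every library; points are libraries (blue sham, orange transplant), bars the mean and SD of 3. The first 6 genes rose at day 1, Mrps9, Mrps21 and Mrps35 fell at day 1, Mrps7 and Mrps31 fell at day 14, and Mrpl12 fell only under median-of-ratios scaling, which is not plotted.

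At day 7 no gene fell on the deposited scale and 10 rose, where 6.01% and 35.5% of all tested genes did. At an unadjusted p below 0.05 limma gave 15 higher and 2 lower members on that scale, beside 6577 and 1135 of the 15278 tested genes. Under median-of-ratios scaling 15 fell and 0 rose, beside 12.8% and 11.6% of all tested genes. There limma gave 1 higher and 28 lower members at an unadjusted p below 0.05, beside 2643 and 2668 of the 15278. The median log2 fold change was 0.10 on the deposited scale, with 64 of 78 below the median of all tested genes, and -0.38 under median-of-ratios scaling. Mrpl33 was at 24.2, 18.5 and 37.9 FPKM in sham and 47.1, 59.7 and 68.2 FPKM in transplant, with no overlap between groups, a log2 fold change of 1.14 ± 0.23 (limma adjusted p = 9.61e-04). Mrpl23, at the exit of the peptide tunnel, was at 14.9, 10.4 and 10.4 FPKM in sham and 24.4, 22.5 and 20.3 FPKM in transplant (0.87 ± 0.19, limma adjusted p = 0.00182). Mrps18b was at 11.1, 14.0 and 13.8 FPKM in sham and 24.3, 24.4 and 22.3 FPKM in transplant, again apart (0.83 ± 0.19, limma adjusted p = 0.00207). These 3 held on the deposited scale with any library left out, and none of them passed under median-of-ratios scaling (0.65, 0.41 and 0.36). The other 7 that rose were Mrps11 (0.70), Mrps23 (0.67), Mrps10 (0.66), Mrps6 (0.59), Mrps25 (0.56), Mrps17 (0.55) and Mrpl40 (0.52). Without replicate 2 of sham only 3 genes rose, and without replicate 3 of transplant 5 did. Without replicate 2 of transplant 1 gene fell on the deposited scale, and under median-of-ratios scaling 1 rose without replicate 3 of sham or replicate 1 of transplant. In all, 6 genes rose on both day 1 and day 7 on the deposited scale, namely Mrpl33, Mrpl40, Mrps6, Mrps10, Mrps17 and Mrps18b. The share of all tested genes that rose on both days is not given here.

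Of the 10 that rose at day 7, 7 were of the small subunit (26.9% of 26) and 3 of the large subunit (5.88% of 51). Both shares were below the 35.5% of all tested genes. The 15 that fell under median-of-ratios scaling were 9 of the large subunit (17.6%), 5 of the small subunit (19.2%) and Mrps36, beside 12.8% of all tested genes. Mrps25 shares 69.8% of its exon length with Nr2c2 on the opposite strand, whose log2 fold change was 0.46 (limma adjusted p = 0.0825). Mrps11 shares 173 bases of exon with Mrpl46, its neighbour on the opposite strand, its groups overlapped at day 7, and its call was lost with 4 of the 6 libraries left out in turn. At day 7 the largest changes among those that fell under median-of-ratios scaling were those of Mrpl48 (-0.93, limma adjusted p = 0.0344), a call lost with 4 of the 6 libraries left out in turn, and Mrpl44, an RNase III-like protein that is mutated in human cardiomyopathy (-0.90, limma adjusted p = 0.00256), a call that held with any library left out. Mrpl44 was at 19.0, 17.4 and 19.2 FPKM in sham and 11.9, 14.4 and 13.9 FPKM in transplant on the deposited scale, where the groups did not overlap and the log2 fold change of -0.44 missed the threshold (limma adjusted p = 0.0993).

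At day 14 no member rose on either scale and 2 fell on the deposited scale, where 22.3% of all tested genes rose and 5.12% fell. At an unadjusted p below 0.05, limma gave 5 higher and 5 lower members on the deposited scale, beside 4892 and 1143 of the 15278 tested genes. These were 0 and 25 under median-of-ratios scaling, beside 2660 and 2544 of the 15278. Under median-of-ratios scaling 13 fell, beside 11.4% of all tested genes that rose and 11.2% that fell. The median log2 fold change was -0.01 on the deposited scale, with 67 of 78 below the median of all tested genes, and -0.31 under median-of-ratios scaling. Mrps7, counterpart of a bacterial protein that starts the assembly of the head (chromosome 11, 115603925 to 115608036), was at 21.4, 21.1 and 19.0 FPKM in sham and 13.0, 13.1 and 15.6 FPKM in transplant. Mrps31, specific to mitochondria (chromosome 8, 22411361 to 22429665), was at 13.2, 11.2 and 12.4 FPKM in sham and 9.58, 7.33 and 8.74 FPKM in transplant. The groups did not overlap in either gene. Log2 fold changes were -0.53 ± 0.15 and -0.48 ± 0.17 (limma adjusted p = 0.0144 and 0.0477) on the deposited scale, and -0.84 and -0.77 after median-of-ratios scaling (limma adjusted p = 3.80e-04 and 0.00258). The deposited call of Mrps7 held with any library left out (highest limma adjusted p = 0.0498), and that of Mrps31 was lost with 5 of the 6.

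The other 11 that fell at day 14 under median-of-ratios scaling were Mrpl10, Mrpl12, Mrpl14, Mrpl22, Mrpl28, Mrpl39, Mrpl50, Mrps2, Mrps14, Mrps21 and Mrps34. The groups of Mrpl28 and Mrps34 overlapped. Mrps34 had uneven sham libraries, at 11.02, 24.5 and 3.86 FPKM against 4.68, 4.10 and 4.96 FPKM in transplant. It shares 63.4% of its exon length with Mapk8ip3 on the opposite strand, which rose (0.94, limma adjusted p = 0.0115, deposited scale). A further 37.0% overlap is with Nme3 on the same strand (mean of 4.67 FPKM), which counting by strand could not separate. Mrpl53 had the lowest log2 fold change on the deposited scale (-1.15) but did not pass (limma adjusted p = 0.122), with 14.5, 10.8 and 5.54 FPKM in sham and 1.28, 10.8 and 3.05 FPKM in transplant and 88.0% of its exon length shared with Gm42688. The number that fell under median-of-ratios scaling was 6, 5 or 8 without replicate 1, 2 or 3 of sham, and 6 without replicate 1 of transplant. On the deposited scale 4 fell without replicate 2 of transplant and 1 fell without replicate 2 of sham, and 1 rose without replicate 1 of sham or replicate 2 or 3 of transplant.

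**Figure D3:**
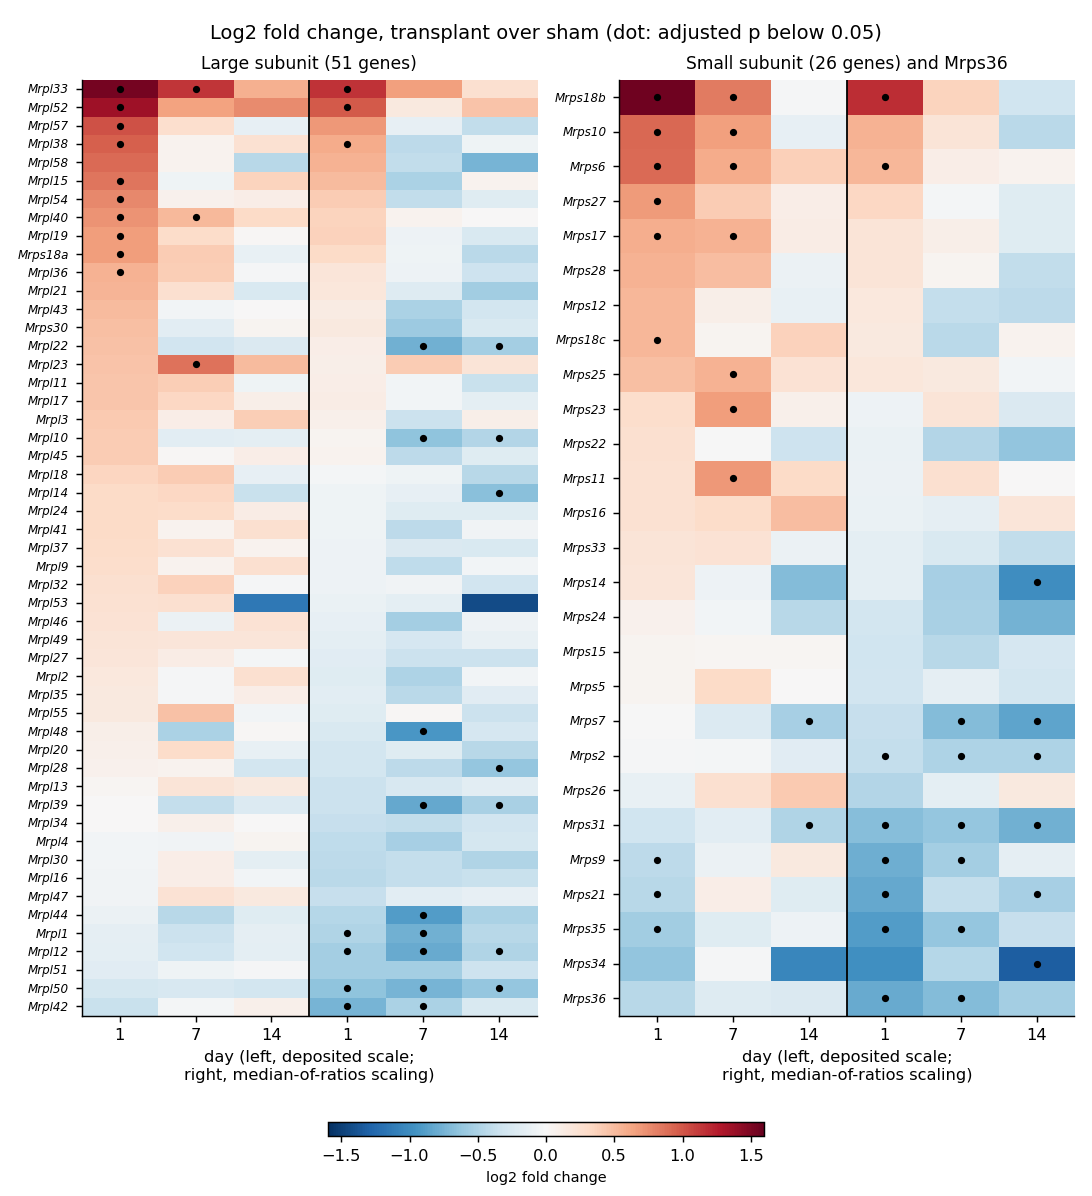
Log2 fold change, transplant over sham, of all 78 genes at day 1, day 7 and day 14, on the deposited scale (left 3 columns of each panel) and under median-of-ratios scaling (right 3), ordered within each panel by the day 1 value with Mrps36 last. Dots mark the calls, which are mostly higher on the left (16, 10 and 0 genes) and mostly lower on the right (10, 15 and 13 genes).

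Under median-of-ratios scaling 4 genes fell on all 3 days, namely Mrpl12, Mrpl50, Mrps2 and Mrps31, and no member rose on more than 1 day. The matching shares of all tested genes are not given here. Mrpl12 is the stalk protein that recruits translation factors to the ribosome and has also been described as a partner of the mitochondrial RNA polymerase. It was at 51.5, 70.1 and 69.6 FPKM in sham and 53.0, 69.2 and 48.8 FPKM in transplant at day 1, at 62.2, 52.6 and 67.3 against 48.8, 50.2 and 45.2 at day 7, and at 58.5, 64.8 and 50.98 against 39.7, 62.8 and 55.0 at day 14. On this deposited scale only the day 7 groups were apart, and none of its log2 fold changes passed (-0.16, -0.32 and -0.16). Under median-of-ratios scaling they were -0.54, -0.81 and -0.48 (limma adjusted p = 0.0225, 0.00165 and 0.0483), with groups apart on every day, and the day 7 call held with any library left out. The calls of day 1 and day 14 were lost with 3 and with 5 of the 6 libraries left out in turn. Mrpl50 had -0.65, -0.74 and -0.62 on that scale (limma adjusted p = 0.00605, 0.0028 and 0.0121), and its day 14 call was lost without replicate 2 of transplant. Mrps2, counterpart of a bacterial protein at the junction of head and body, had -0.38, -0.49 and -0.49 (limma adjusted p = 0.0407, 0.011 and 0.0129), and values near 0 (-0.02 to -0.18) on the deposited scale. Its day 1 call was lost with 4 of the 6 libraries left out in turn, and its day 7 call without replicate 3 of transplant. With every library set to the same FPKM sum (the TPM scale) its log2 fold change was positive at day 1 (0.10) and day 7 (0.25). The call of Mrps31 was lost at day 7 without replicate 1 of transplant.

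**Figure D4:**
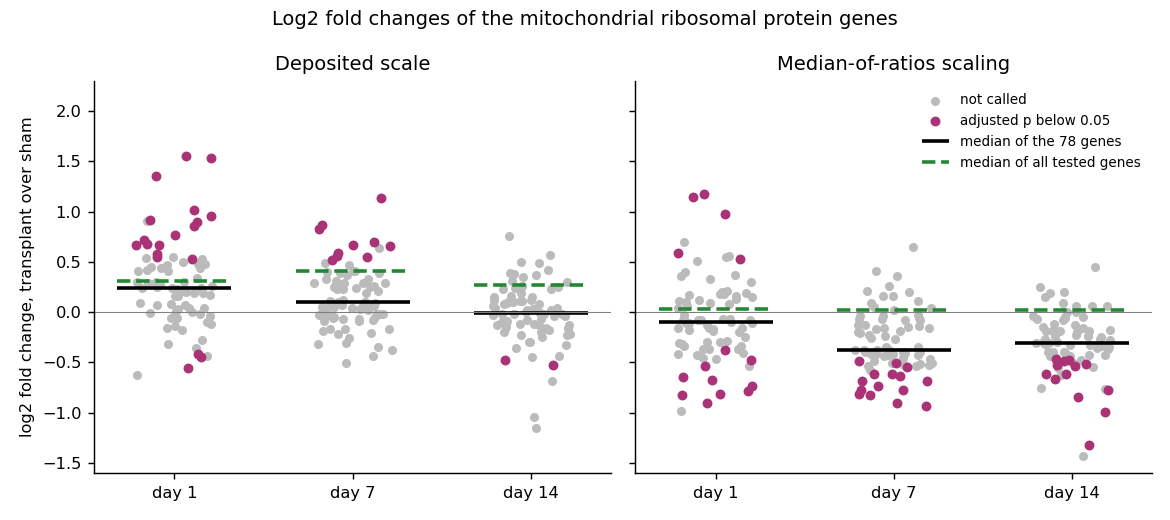
Log2 fold change, transplant over sham, of each of the 78 genes per day on both scales; purple points passed at an adjusted p below 0.05, black lines mark the median of the 78 and dashed green lines that of all tested genes. The black line lies below the green line on all 3 days, by the least at day 1 (0.24 against 0.31 on the deposited scale) and by more at day 7 (0.10 against 0.41) and day 14 (-0.01 against 0.27).

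The change of the transplant effect with time was tested as the difference between days. Between day 14 and day 1 the effect fell in Mrps18b by 1.56 ± 0.26 on the log2 scale (limma adjusted p = 8.71e-04), and in Mrps10 by 1.05 ± 0.33 (limma adjusted p = 0.0473), both on the deposited scale, where 5.05% of all tested genes had a lower and 5.20% a higher effect. No member had a higher effect there. At an unadjusted p below 0.05 limma gave 1 higher and 15 lower members on that scale, beside 1769 and 1904 of the 15278 tested genes. These were 3 and 14 under median-of-ratios scaling, beside 1930 and 1675 of the 15278. At day 14 the Mrps18b libraries were at 11.8, 11.7 and 16.02 FPKM in sham and 17.0, 13.2 and 9.47 FPKM in transplant, with the same mean (13.2 FPKM) and full overlap. Mrps10 was then at 9.72, 12.0 and 10.2 FPKM in sham and 14.6, 9.37 and 6.45 FPKM in transplant, also overlapping. Under median-of-ratios scaling, where 4.50% of all tested genes had a lower and 5.59% a higher effect, the same 2 genes passed (-1.50 and -0.99) and Mrps9 had a higher effect at day 14 than at day 1 (0.63, limma adjusted p = 0.0478). The Mrps18b difference held with any of the 12 libraries left out, on both scales, and that of Mrps10 on the deposited scale was lost with 10 of them, as was that of Mrps9. The number with a lower effect on the deposited scale ran from 1 to 3 over these deletions. Between day 7 and day 1 no member passed. Of all tested genes 3.06% and 1.31% had a higher and a lower effect on the deposited scale and 2.0% and 1.73% under median-of-ratios scaling. At an unadjusted p below 0.05 limma gave 1 higher and 7 lower members on the deposited scale, beside 1687 and 858 of the 15278 tested genes. These were 0 and 8 under median-of-ratios scaling, beside 1251 and 1201 of the 15278. Between day 14 and day 7 no member passed either, beside 0.353% and 0.262% of all tested genes (0.419% and 0.137% under median-of-ratios scaling). At an unadjusted p below 0.05 limma gave 0 higher and 5 lower members on the deposited scale, beside 587 and 1238 of the 15278 tested genes. These were 0 and 1 under median-of-ratios scaling, beside 929 and 618. In sham, no member differed between day 7 or day 14 and day 1 on either scale, beside 0.00655% of all tested genes higher at day 14 and 0.00% in the other sham comparisons. At an unadjusted p below 0.05 limma gave at most 3 members in any direction. These were the 3 lower at day 14 on each scale, beside 448 of the 15278 tested genes.

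Among members with a known special role, Mrpl58, a peptidyl-tRNA hydrolase that rescues stalled ribosomes and is built into the large subunit, was at 11.5 ± 0.788 FPKM in sham and 23.3 ± 7.71 FPKM in transplant at day 1, with groups apart, and missed the threshold (log2 fold change 0.91, limma adjusted p = 0.0864). Mrps12, at the decoding centre, was at 15.0 ± 3.67 and 22.9 ± 9.09 FPKM (0.53, limma adjusted p = 0.153), and Mrps22, mutated in human mitochondrial disease, at 14.3 ± 0.923 and 17.2 ± 2.48 FPKM (0.25, limma adjusted p = 0.469). Mrps30 was at 5.85 ± 1.20 and 8.49 ± 0.673 FPKM (0.48, limma adjusted p = 0.0858). None of these 4 passed on any day on the deposited scale or under median-of-ratios scaling, and neither did Mrpl18, at 23.7 ± 1.23 and 30.4 ± 2.47 FPKM at day 1, whose exons share 141 bases with the chaperonin gene Tcp1, which rose at day 1 (0.71, limma adjusted p = 3.97e-04). On the TPM scale Mrpl58, Mrps30 and Mrpl18 rose at day 1. Mrps36, the oxoglutarate dehydrogenase subunit, was at 36.9 ± 6.34 and 27.2 ± 6.53 FPKM at day 1, a log2 fold change of -0.44 (limma adjusted p = 0.12). It fell under median-of-ratios scaling at day 1 (-0.81, limma adjusted p = 0.00949) and day 7 (-0.69, limma adjusted p = 0.0303), calls lost at day 1 without replicate 3 of transplant and at day 7 with 4 of the 6 libraries left out in turn.

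In all, 40 of the 78 genes passed on some day on the deposited scale or under median-of-ratios scaling, and 38 on neither. On the TPM scale 17 of these 38 rose on some day, 10 at day 1, 13 at day 7 and 1 at day 14. The shares of all tested genes by the same rules are not given here, neither for the 40 nor for the TPM scale. These counts are therefore not read as a result about the members. These 38 had log2 fold changes from -0.18 to 0.91 at day 1, -0.17 to 0.49 at day 7 and -1.15 to 0.49 at day 14 on the deposited scale, with medians of 0.23, 0.11 and 0.00, and medians of -0.12, -0.35 and -0.30 under median-of-ratios scaling. They were Mrpl2, Mrpl3, Mrpl4, Mrpl9, Mrpl11, Mrpl13, Mrpl16, Mrpl17, Mrpl18, Mrpl20, Mrpl21, Mrpl24, Mrpl27, Mrpl30, Mrpl32, Mrpl34, Mrpl35, Mrpl37, Mrpl41, Mrpl43, Mrpl45, Mrpl46, Mrpl47, Mrpl49, Mrpl51, Mrpl53, Mrpl55 and Mrpl58, and Mrps5, Mrps12, Mrps15, Mrps16, Mrps22, Mrps24, Mrps26, Mrps28, Mrps30 and Mrps33. The mean FPKM of a member over all libraries ran from 3.41 (Mrpl19) to 74.6 (Mrpl42), with a median of 16.3, and Mrps21 (57.9) and Mrpl12 (56.7) followed Mrpl42.

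The rest of the machinery of mitochondrial translation was read from lists of other genes, whose counts are given without a test of the list. For comparison with each list, 29.6%, 35.5% and 22.3% of all tested genes rose on the 3 days on the deposited scale. On that scale 9.56%, 6.01% and 5.12% fell. Under median-of-ratios scaling 14.7%, 11.6% and 11.4% rose, and 15.5%, 12.8% and 11.2% fell. Of 5 further mitoribosome proteins without an Mrp name, only Chchd1 of the small subunit rose (0.58 at day 1 and 0.69 at day 7 on the deposited scale, limma adjusted p = 0.0372 and 0.0152), and it did not pass under median-of-ratios scaling. Dap3 (0.02, 0.23 and 0.26 on the 3 days), Ptcd3 (0.15, 0.08 and -0.01) and Gadd45gip1 (0.33, -0.02 and 0.24) did not pass on any day. Of 15 translation factors, 0 rose and 2 fell at day 1, 1 and 0 at day 7, and 1 and 1 at day 14 on the deposited scale, and 0 rose and 7, 6 and 5 fell under median-of-ratios scaling. Gfm1, the elongation factor that moves the ribosome along, fell at day 1 (-0.47, limma adjusted p = 0.0106) and day 14 (-0.48, limma adjusted p = 0.0142), and the initiation factor gene Mtif3 fell at day 1 (-0.84, limma adjusted p = 0.035). These also fell under median-of-ratios scaling (-0.83 and -0.79 for Gfm1, and -1.17 for Mtif3). Mtfmt, which makes the formylated initiator tRNA, rose at day 7 (0.56, limma adjusted p = 0.0437) and the release factor gene Mtrf1l at day 14 (0.67, limma adjusted p = 0.0297), neither of which passed under median-of-ratios scaling (0.13 and 0.42). Tufm, the elongation factor that delivers aminoacyl-tRNAs, had -0.22, -0.23 and -0.19 on the deposited scale, where it did not pass, and -0.59, -0.71 and -0.51 under median-of-ratios scaling, where it fell on each day (limma adjusted p = 0.0138, 0.00515 and 0.0408).

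Of 20 genes for mitochondrial tRNA charging, 3 rose and 2 fell at day 1, and 1 fell at each later day on the deposited scale. Under median-of-ratios scaling 0 rose on any day, and 4, 6 and 2 fell. Gatb, of the amidotransferase that makes glutaminyl-tRNA, fell at day 1 and day 7 (-1.18 and -1.16, limma adjusted p = 3.76e-04 and 5.68e-04), Rars2 fell at day 14 (-0.48, limma adjusted p = 0.0405) and Aars2 rose at day 1 (0.82, limma adjusted p = 0.019), all on the deposited scale. Gatb and Rars2 also fell under median-of-ratios scaling on those days (-1.53 and -1.59, and -0.79), and Aars2 did not pass there (0.50, limma adjusted p = 0.159). Of 26 genes for assembly of the mitochondrial ribosome and modification of its RNA, 2, 3 and 2 rose and 0, 0 and 1 fell on the 3 days on the deposited scale, and 0 rose and 0, 3 and 2 fell under median-of-ratios scaling. Those with the smallest p were the GTPase gene Mtg1 (0.91) and the pseudouridine synthase gene Rpusd4 (0.68) at day 1, Mpv17l2 (0.79) and Fastkd5 (0.66) at day 7, and Mettl17 (0.79) and the methyltransferase gene Mrm2 (-0.90) at day 14, with limma adjusted p from 0.00418 to 0.0333 on the deposited scale. Of these 6, only Mrm2 passed after median-of-ratios scaling (-1.13, limma adjusted p = 0.00807). Tfb1m, which methylates the small ribosomal RNA, had -0.12, 0.11 and 0.23 and did not pass.

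Of 16 genes for transcription of the mitochondrial chromosome and for mitochondrial biogenesis, 2 rose and 2 fell at day 1, 4 and 0 at day 7, and 1 and 0 at day 14 on the deposited scale. Under median-of-ratios scaling 2 rose and 2 fell at day 1, 2 and 3 at day 7, and 1 and 4 at day 14. Myc, a transcription factor of growth that also drives genes of ribosome production, rose on all 3 days by 3.84, 2.20 and 1.63 (limma adjusted p = 1.82e-09, 2.55e-06 and 1.12e-04), and Pprc1, a coactivator of NRF1-driven genes that responds to serum, rose by 1.83 and 1.18 at day 1 and day 7 (limma adjusted p = 1.95e-05 and 0.00156). Both also rose under median-of-ratios scaling on those days (3.55, 1.79 and 1.42 for Myc, and 1.54 and 0.79 for Pprc1). Ppargc1a, the main coactivator of mitochondrial biogenesis, fell at day 1 (-1.08, limma adjusted p = 5.30e-05, and -1.42 under median-of-ratios scaling) and had 0.34 and 0.09 at day 7 and day 14, where it did not pass. Tfam, which packs and transcribes the mitochondrial chromosome (-0.08, 0.20 and 0.05), and the polymerase gene Polrmt (0.07, -0.10 and 0.14) did not pass on any day. Of 21 genes of import, chaperones and proteases, 3, 3 and 0 rose and 4, 3 and 3 fell on the 3 days on the deposited scale, and 0 rose and 8, 11 and 8 fell under median-of-ratios scaling. Pmpcb, of the peptidase that removes import signals, fell on all 3 days on the deposited scale (-0.91, -1.05 and -0.73, limma adjusted p = 2.85e-04, 9.48e-05 and 0.00359) and under median-of-ratios scaling (-1.29, -1.54 and -1.05).

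Set beside the gene groups whose products meet in the same organelle or in the cytosolic ribosome, the family had medians between those of the respiratory chain and those of the cytosolic ribosome on all 3 days and both scales. This position is not particular to the family, since the median of all tested genes also lay there (0.31, 0.41 and 0.27 on the deposited scale). So did the medians of the genes for tRNA charging (0.14, 0.23 and 0.10) and for ribosome assembly (0.22, 0.18 and 0.18). Oxidative phosphorylation was represented by 74 nuclear genes, of which none rose and 51 fell at day 1 on the deposited scale, 2 and 10 at day 7, and 0 and 2 at day 14, with median log2 fold changes of -0.56, -0.15 and -0.06. Examples at day 1 were the respiratory chain genes Ndufs1 (-1.01, limma adjusted p = 1.70e-06) and Sdha (-0.98, limma adjusted p = 3.89e-06). The 13 protein-coding genes of the mitochondrial chromosome, whose messengers these ribosomes translate, had medians of -0.58, -1.25 and -0.52, and 12, 13 and 7 of them fell. Of 76 cytosolic ribosomal protein genes, 71, 73 and 62 rose and 0 fell, with medians of 0.85, 0.90 and 0.59, as for Rpl12 (1.99, limma adjusted p = 2.27e-07) and Rps18 (1.01, limma adjusted p = 1.57e-06) at day 1. Under median-of-ratios scaling 67, 52 and 26 of the oxidative phosphorylation genes and all 13 of the chromosome's genes fell on the 3 days, and 49, 32 and 13 of the cytosolic ribosomal protein genes rose. The medians of the mitochondrial ribosomal protein genes were 0.24, 0.10 and -0.01 on the deposited scale and -0.10, -0.38 and -0.31 under median-of-ratios scaling. At day 14 the medians of the family and of the oxidative phosphorylation genes were close on both scales (-0.31 and -0.39 under median-of-ratios scaling). No test was made between the groups.

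**Figure D5:**
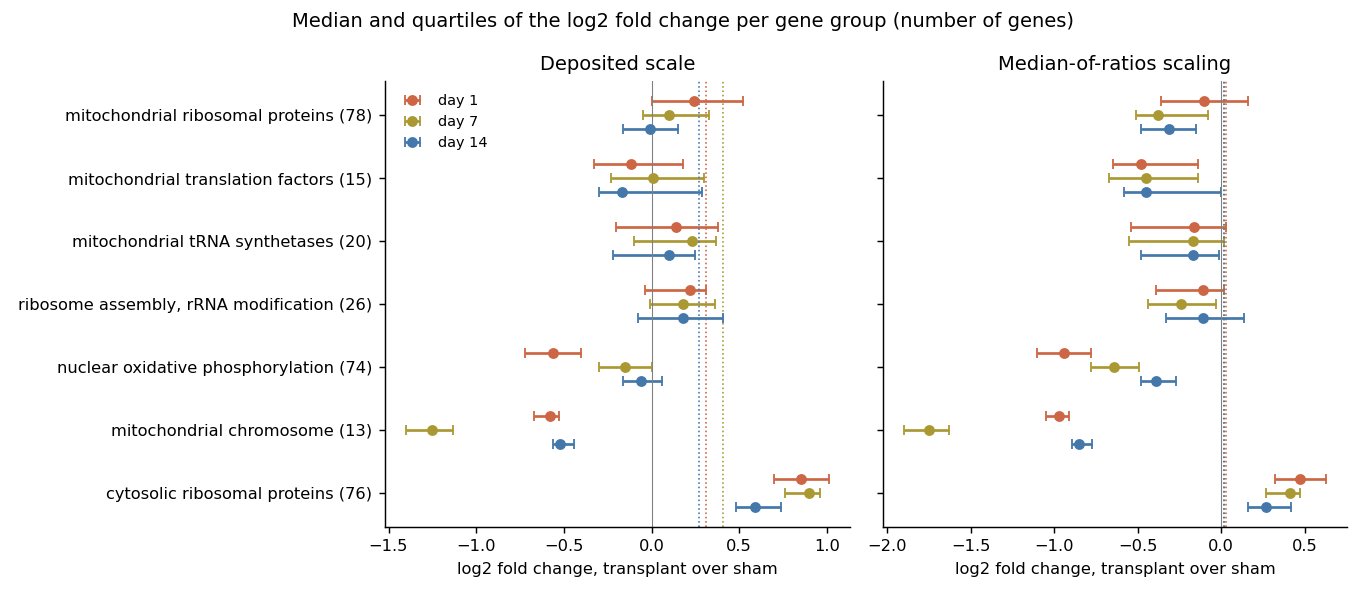
Median (point) and quartiles (bar) of the log2 fold change, transplant over sham, for 7 gene groups at day 1, day 7 and day 14 on both scales, with dotted lines at the median of all tested genes. The 76 cytosolic ribosomal protein genes lie to the right, the mitochondrial-chromosome genes to the left, and the 78 mitochondrial ribosomal protein genes between them.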

How the data were processed

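Kidney RNA of 18 libraries was measured by RNA sequencing, and the values are FPKM that the authors deposited in a single table. Per the submitters' processing notes the tools and builds included DESeq2 and mm10. The aligner, counter, annotation and scaling total were not given in the sources used here. Comparing low values gave whole fragments for at most 14.3% of them (tolerance 0.05), so the depth, and any interval that needs it, is unknown. Groups follow the sample titles, and 54819 of 54848 gene IDs matched GENCODE M21, whose coordinates are those of GRCm38. The 17 rows of 7 repeated IDs were left out.

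Genes with at least 1 FPKM in at least 3 libraries (15278) were tested on log2(FPKM + 1) with limma 3.58.1 in R 4.3.3, in a single robust fit of 6 group means over all libraries, without a replicate block. P-values were adjusted by Benjamini and Hochberg over all tested genes of a comparison and called below 0.05. The fit was tested on simulated data. Median-of-ratios scaling used the genes above 0 in every library, and tests were repeated on the same genes. The other alternatives were other scalings, pseudocounts of 0.1 and 5, filters, a fit of only the groups compared, moderation that is not robust, a replicate block and each library left out. Tables and plots used Python 3.11.15, pandas 2.3.3 and matplotlib 3.10.9.

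Members and lists were chosen with earlier results of these data known. Members named with values were, per day and direction, the 6 with the largest change among those called, per difference between days the 3 largest, the 3 most abundant, and a panel with known roles. From each other list up to 2 called genes per day with the smallest adjusted p and a panel were named. Other members named with values, such as Mrpl53, Mrpl36 and Mrps25, and genes whose exons overlap a member's were chosen after their values were seen.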

Additional observations from a re-analysis of the deposited data

Results flagged for a closer look

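The difference of the transplant effect between day 14 and day 1 passed the test of the difference itself in 3 members. In Mrps18b it was -1.56 on the deposited scale and -1.50 under median-of-ratios scaling, from an effect of 1.55 at day 1 to -0.02 at day 14 on the deposited scale. In Mrps10 it was -1.05 and -0.99, from 0.92 to -0.13. In Mrps9 it was 0.63 under median-of-ratios scaling, from -0.78 to -0.15. The values are log2 fold changes from limma, and those of Mrps10 and Mrps9 lost their call with 10 of the 12 libraries left out in turn. On the deposited scale 2.56% of the members were lower and 0% higher, beside 5.05% and 5.20% of all tested genes. Under median-of-ratios scaling these were 2.56% and 1.28%, beside 4.50% and 5.59%. The count of such members is thus below the share of all tested genes.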

How the results depend on the processing

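The scaling between libraries moved the counts most. The members that rose at day 1 numbered 16 on the deposited scale, 5 under median-of-ratios scaling and 30 with every library set to the same sum (TPM scale), and at day 7 they numbered 10, 0 and 29. At day 14, 6 rose on the TPM scale and 4 without the mitochondrial chromosome. FPKM sums were 386876 to 468469 in transplant and 471737 to 524362 in sham, so the TPM scale raises transplant values relative to sham for all genes. The shares of all tested genes called on these 2 scales are not given here. Their counts are therefore not read as a result about the members. The members that fell numbered 3, 10 and 1 at day 1 and 0, 15 and 0 at day 7. At day 14 they numbered 2, 13 and 0, and 1 without the mitochondrial chromosome. The summed level ratio of 1.23 at day 1 turned to 0.94 under median-of-ratios scaling and was 1.35 on the TPM scale, at day 7 it went from 1.12 to 0.794 and 1.39 (TPM scale), and at day 14 from 1.0 to 0.799 and 1.13. In the difference between day 14 and day 1, 1 member was higher under median-of-ratios scaling and 1 without the mitochondrial chromosome. The 2 lower ones became 1 without the mitochondrial chromosome, on the TPM scale, with a pseudocount of 0.1, with no filter and with only the groups compared.

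With only the groups compared, 1 fell at day 1, 1 fell at day 7, and 1 rose and 1 fell at day 14. With no filter 5 rose at day 7 and 1 fell at day 14, and with a pseudocount of 5, 1 fell at day 14. The cause of these shifts was not tested. On the TPM scale the log2 fold change turned positive for Mrps2 at day 1 (0.10), at day 7 for Mrpl10 (0.12), Mrpl42 (0.27), Mrpl50 (0.03), Mrps2 (0.25), Mrps7 (0.06), Mrps9 (0.20), Mrps31 (0.11), Mrps35 (0.08) and Mrps36 (0.08), and at day 14 for Mrpl10 (0.00) and Mrpl12 (0.00). Without the mitochondrial chromosome it did so at day 7 for Mrpl42 (0.02) and Mrps2 (0.01). None of these had passed on the deposited scale on that day, but all had been called lower under median-of-ratios scaling. The direction of 1 of 15 such calls at day 1, 9 of 15 at day 7 and 2 of 13 at day 14 turned on the TPM scale.

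With each library left out in turn, 10 to 18 members rose and 0 to 2 fell at day 1, 3 to 8 and 0 to 1 at day 7, and 0 to 1 and 1 to 4 at day 14. In the difference between day 7 and day 1, 0 to 1 were lower on both scales, and between day 14 and day 1, 0 to 1 were higher and 1 to 3 lower on both. Under median-of-ratios scaling, deletions chosen after seeing the data, 2 to 6 rose and 6 to 12 fell at day 1, 0 to 1 and 11 to 18 at day 7, and 0 and 5 to 14 at day 14. The sign of the deposited log2 fold change turned with a library left out for Mrps2 at day 1 (-0.10 to 0.08), Mrpl42 at day 7 (-0.12 to 0.04), Mrps2 at day 7 (-0.11 to 0.03), Mrps9 at day 7 (-0.18 to 0.01), Mrpl12 at day 14 (-0.30 to 0.02) and Mrps21 at day 14 (-0.39 to 0.02).

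Same-numbered libraries correlated by at most 0.10 in their deviations from the group means. No pairing by number was seen, though this check cannot exclude one. With a replicate block 19 rose and 2 fell at day 1, 9 and 0 at day 7, and 3 and 2 at day 14, and 0 were higher and 2 lower in the difference between day 14 and day 1. With 3 libraries per group and an unknown depth, small changes could be missed, and not only those of low genes. In the simulated data 12% of log2 changes of 0.5 and 66% of those of 1 were recovered. There only 50 of 15278 genes were changed at each size, while 4517 rose and 1460 fell at day 1 in the data. Adjustment is stricter where few genes change, so these shares do not give the sensitivity of the tests made here. A member that did not pass is not shown to be unchanged.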
